A study of Mus musculus with 6 samples.

Results

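The 10 genes described here carry a canonical Wnt signal from the cell surface to the nucleus. They are Ctnnb1, which encodes beta-catenin, the destruction complex genes Apc, Axin1, Gsk3a and Gsk3b, the dishevelled genes Dvl1, Dvl2 and Dvl3, and the co-receptor genes Lrp5 and Lrp6. They were chosen by name from the 50559 genes listed in the count and TPM tables of the series, and all 10 were found and had enough counts to be tested. Earlier results of these data were known when they were chosen. Libraries of C57 mouse auditory cortex were sequenced in 2 groups, with 3 libraries from mice labelled WNT3 overexpressing and 3 from mice labelled WNT3 control. The labels give neither the means by which Wnt3, a secreted Wnt ligand, was overexpressed, nor the treatment of the control mice, their age, or whether replicates are separate animals. The p-values therefore measure only the spread between these libraries. The study asked which molecular changes follow Wnt3 overexpression in this part of the brain.

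In cells without a Wnt signal, the scaffold proteins Axin and APC hold beta-catenin where casein kinase 1 and GSK3 phosphorylate it, and the marked protein is degraded. A Wnt ligand bridges a Frizzled receptor and LRP5 or LRP6, dishevelled proteins gather below them, Axin is drawn to the membrane, and beta-catenin accumulates and enters the nucleus, where it works with TCF/LEF factors. Much of this control acts on the proteins, by phosphorylation and degradation, whereas RNA levels alone were measured here. In neurons beta-catenin also links cadherins to the cytoskeleton at synapses, and GSK3 acts on many substrates outside the Wnt pathway.

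Wnt3 itself was at 98.8, 7.45 and 8.71 CPM (counts scaled to TMM-adjusted library size) in the overexpression libraries, against 2.70, 1.91 and 1.74 CPM in the controls. Every overexpression library lay above every control, and overexpression library 1 was far above the other two. Total counts per library ran from 42614588 to 71803617. Summed cortical excitatory neuron markers ran from 1495 to 1609 CPM in overexpression and from 1577 to 1875 CPM in control. Of these 11 markers 3 were lower in every overexpression library than in every control, and 0 were higher. Of all tested genes 6.04% were lower in that way and 5.89% higher. The extraction protocol speaks of striatum, and summed striatal projection neuron markers ran from 398 to 454 CPM in overexpression and from 421 to 580 CPM in control. No marker of either list was at 0 in all 6 libraries, so this does not tell cortex from striatum. Since the tissue was sequenced in bulk, fewer cells of a type and less RNA per cell cannot be told apart.

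Control library 2 stood apart from the other libraries, and this touches most of the values that follow. It was the lowest or the highest of the 6 libraries for 69.7% of all 22360 tested genes, against 19.9% to 30.6% for each other library. Among the 10 pathway genes it was the lowest for 6 and the highest for 3, so for 9 in all. Bc1, a short neuronal RNA, was at 24336 to 30079 TPM (a scale per transcript length) in the overexpression libraries and at 97702 TPM in control 2, against 29880 and 32645 TPM in the other controls. The median TPM of the tested genes was 6.83 to 7.37 in overexpression and 4.60 in control 2, against 6.69 and 6.75 in the other controls. Values without control 2 are therefore given beside those with all libraries.

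None of the 10 genes passed the test of overexpression against control. Their p by the quasi-likelihood test of edgeR, adjusted over all genes by Benjamini-Hochberg, ran from 0.822 to 0.952. The same test called 0 of 22360 genes, a background of 0%. Wnt3 itself was not called, at a log2 fold change of 4.18 ± 1.02 (SE). Its unadjusted p was 0.00328 and its adjusted p 0.822 by edgeR. Without overexpression library 1 the log2 fold change of Wnt3 was 1.94 ± 0.33 (SE). Its unadjusted p was then lower, at 0.000557, and its adjusted p was 0.980 by edgeR. The absence of a call therefore does not show that a gene was unchanged. At an unadjusted p under 0.05 the test had 0 of the 10 genes and 1040 of all genes, which is 4.65%. DESeq2 called 0 of the 10 and 64 genes in all (0.286%), and at an unadjusted p under 0.05 it had 1 of the 10, Lrp5, beside 6.06% of all genes. The log2 fold change was above 0 for 6 of the 10 genes and for 49.3% of all genes. Its median was 0.13 over the 10 genes and -0.0069 over all genes. In CPM the groups did not overlap for 2 of the 10, Lrp5 and Dvl1, and for 11.9% of all genes. Without control 2 the medians were -0.028 and 0.017, and 4 of the 10 genes and 53.2% of all genes were above 0. In that comparison edgeR called 0 of the 10 and 0 of 22962 genes, and 0 of the 10 and 5.87% of all genes had an unadjusted p under 0.05.

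**Figure D1:**
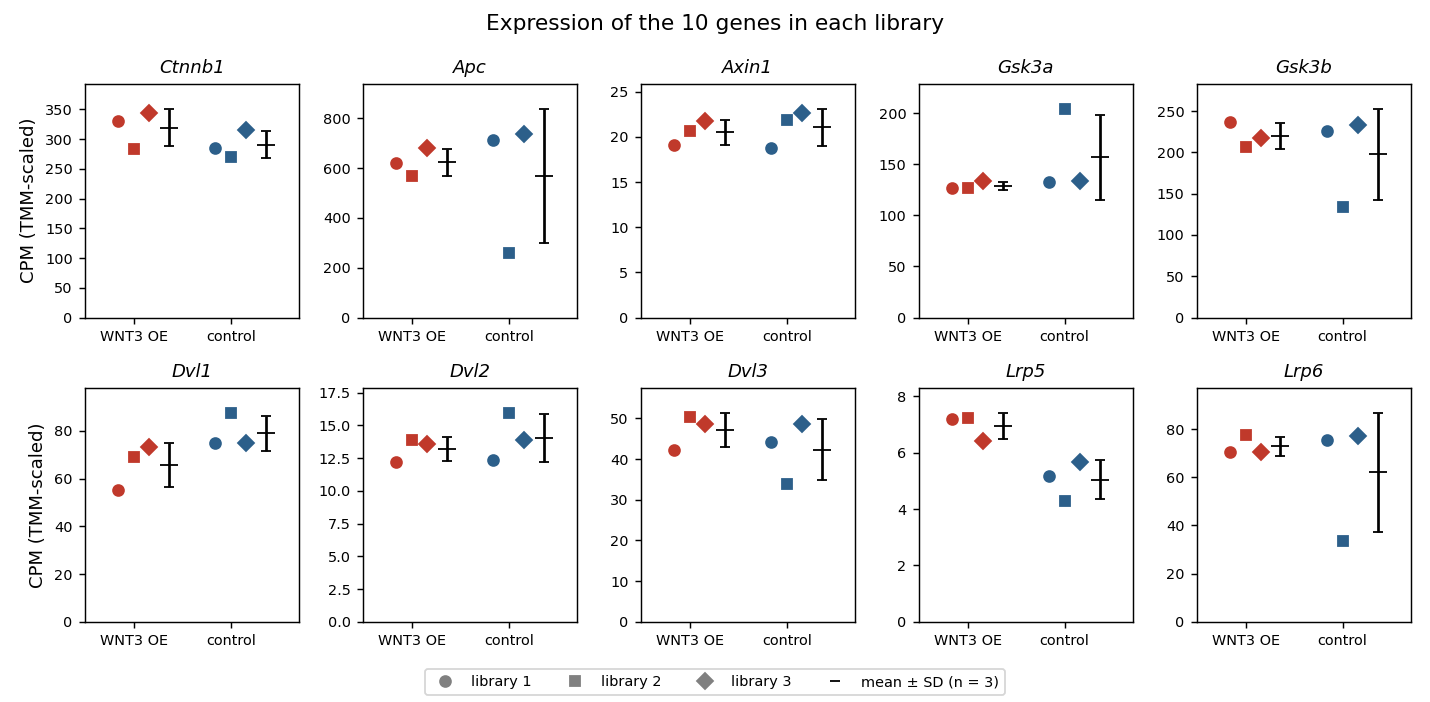
Each panel plots 1 gene in CPM on an axis that starts at 0, with the overexpression libraries on the left, the controls on the right, and the mean ± SD of 3 libraries as black bars. Lrp5 and Dvl1 are the genes whose groups do not overlap, and control library 2 (blue square) is far below the other 5 libraries for Apc, Gsk3b and Lrp6 and far above them for Gsk3a.

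Ctnnb1 is the effector of the pathway and had the highest mean of the 10 genes on the TPM scale. Its gene spans 120929216 to 120960507 of chromosome 9 (plus strand, mm10, GENCODE M21, as for all positions given here). It was at 331, 284 and 344 CPM in the overexpression libraries, against 286, 270 and 315 CPM in the controls. The groups overlapped, since overexpression library 2 lay below controls 1 and 3. The log2 fold change was 0.14 ± 0.16 (SE, n = 3 each), with a 95% interval from -0.23 to 0.50. On the linear scale that interval runs from 0.855-fold to 1.42-fold. Without control 2 the log2 fold change was 0.09, with a 95% interval from -0.17 to 0.35. The 3 genes whose levels over the 6 libraries were most like those of Ctnnb1 were Fip1l1, Aida and Man1b1. Their root-mean-square differences from Ctnnb1 were 0.0274, 0.0284 and 0.037 on the centred log2 CPM scale, as the smallest of 9940 genes compared.

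Apc, the large scaffold of the destruction complex, was the gene that control 2 moved most. Its gene spans 34220924 to 34322552 of chromosome 18 (plus strand). It was at 621, 570 and 679 CPM in the overexpression libraries, against 714, 259 and 736 CPM in the controls. The overexpression libraries thus lay below controls 1 and 3 and far above control 2. Over all libraries the mean was 623 ± 55 CPM in overexpression and 570 ± 269 CPM in control (SD, n = 3 each), a log2 fold change of 0.13 ± 0.35 (SE). Without control 2 its sign turned, to -0.22 ± 0.095 (SE), with a 95% interval from -0.44 to 0.0071. The unadjusted p was then 0.0558 and the adjusted p 0.851 by edgeR.

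Axin1, the scaffold that binds APC, GSK3 and beta-catenin, stayed close to 20 CPM in every library. The gene is on chromosome 17, positions 26138688 to 26195811, plus strand. It was at 19.1, 20.6 and 21.8 CPM in overexpression, against 18.7, 21.8 and 22.6 CPM in control, and the groups overlapped. Its log2 fold change was -0.04 ± 0.17 (SE), with a 95% interval from -0.44 to 0.36, and it was 0.016 without overexpression library 1 and 0.02 without control 3. Axin1 was also the 1 gene of the 10 for which control 2 was neither the lowest nor the highest library.

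The GSK3 kinases, which phosphorylate beta-catenin, are encoded by Gsk3a on chromosome 7 (25228258 to 25237851, minus strand) and Gsk3b on chromosome 16 (38089001 to 38246084, plus strand). Gsk3a was at 126, 127 and 134 CPM in the overexpression libraries, against 132, 204 and 134 CPM in the controls. Outside control 2 the 5 libraries lay between 126 and 134 CPM, so the higher control mean came from that library. The log2 fold change of Gsk3a was -0.28 ± 0.20 (SE) with all libraries and -0.04 ± 0.083 (SE) without control 2. Gsk3b was at 237, 206 and 217 CPM in overexpression, against 225, 134 and 233 CPM in control, so control 2 stood out in the opposite direction. Its log2 fold change was 0.16 ± 0.23 (SE) with all libraries and -0.06 ± 0.092 (SE) without control 2. Without that library the 95% intervals ran from -0.24 to 0.15 for Gsk3a and from -0.27 to 0.16 for Gsk3b.

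The dishevelled proteins relay the signal from the receptors to Axin. Dvl1, on chromosome 4 (155847402 to 155859303, plus strand), was at 55.3, 68.9 and 73.1 CPM in the overexpression libraries, against 74.8, 87.5 and 74.9 CPM in the controls. In CPM every overexpression library lay below every control, by a narrow gap between overexpression library 3 and control 1, a pattern that 6.04% of all tested genes showed. On the TPM scale the groups of Dvl1 overlapped. It was at 42.6, 50.3 and 51.7 TPM in overexpression, against 53.8, 42.8 and 53.9 TPM in control. The log2 fold change of Dvl1 was -0.27 ± 0.17 (SE), with an unadjusted p of 0.163 and an adjusted p of 0.822 by edgeR, and it was -0.18 without control 2.

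Dvl2, on chromosome 11 (70000595 to 70012301, plus strand), was at 12.2, 13.9 and 13.5 CPM in overexpression, against 12.3, 16 and 13.9 CPM in control. Its groups overlapped, and the log2 fold change was -0.09 ± 0.19 (SE), or 0.014 without control 2. Dvl3, on chromosome 16 (20516982 to 20534010, plus strand), was at 42.3, 50.3 and 48.7 CPM in overexpression, against 44.3, 34.0 and 48.7 CPM in control. Dvl3 also overlapped between the groups, with a log2 fold change of 0.15 ± 0.19 (SE), or 0.02 without control 2.

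The co-receptor gene Lrp5 had the largest log2 fold change and the smallest p of the 10 genes, and it did not pass. Its gene spans 3584828 to 3686564 of chromosome 19 (minus strand) and has roles in bone mass and in the growth of retinal vessels. It was at 7.2, 7.23 and 6.43 CPM in the overexpression libraries, against 5.16, 4.29 and 5.68 CPM in the controls. Every overexpression library lay above every control, as for 5.89% of all tested genes. The means were 6.95 ± 0.46 CPM in overexpression and 5.04 ± 0.70 CPM in control (SD, n = 3 each). The log2 fold change was 0.46 ± 0.23 (SE), with a 95% interval from -0.061 to 0.99, an unadjusted p of 0.0759 and an adjusted p of 0.822 by edgeR. Without control 2 it was 0.36 ± 0.17 (SE), with an adjusted p of 0.875 by edgeR. The counts behind it were the lowest of the 10 genes, from 404 to 459 in overexpression and from 220 to 287 in control.

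Summed endothelial markers, like Lrp5, were higher in every overexpression library than in every control. The 7 markers together were at 288, 388 and 239 CPM in overexpression, against 202, 178 and 189 CPM in control, with no overlap. Of these 7 markers 6 had a log2 fold change above 0, 3 did not overlap singly, and 0 passed the adjusted threshold by edgeR (3 had an unadjusted p under 0.05, and DESeq2 called 1). Over all tested genes 49.3% were above 0, and 5.89% were higher without overlap. An unadjusted p under 0.05 by edgeR was found for 4.65%, and DESeq2 called 0.286%. The sum of the 6 tested markers of neutrophils and infiltrating leukocytes also did not overlap, nor did any of the 6 singly. It was at 40.2, 82.2 and 13.5 CPM in overexpression against 5.16, 5.15 and 6.96 CPM in control. All 6 had an unadjusted p under 0.05 by edgeR and 0 passed after adjustment, DESeq2 called 3, and 3 further markers of that list had too few counts to be tested. Summed pericyte and smooth muscle markers were at 204, 235 and 213 CPM in overexpression, against 198, 186 and 185 CPM in control, with 3 of 6 above 0. The part of these markers in the Lrp5 values was not tested.

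Lrp6, the co-receptor whose loss in mice is lethal at birth, lies on chromosome 6 (134446476 to 134566965, minus strand). It was at 70.6, 77.5 and 70.5 CPM in overexpression, against 75.6, 33.6 and 77.0 CPM in control. Without control 2 the 5 libraries spanned only 70.5 to 77.5 CPM. The log2 fold change was 0.23 ± 0.30 (SE) with all libraries and -0.07 ± 0.094 (SE) without control 2, where the 95% interval ran from -0.29 to 0.16.

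**Figure D2:**
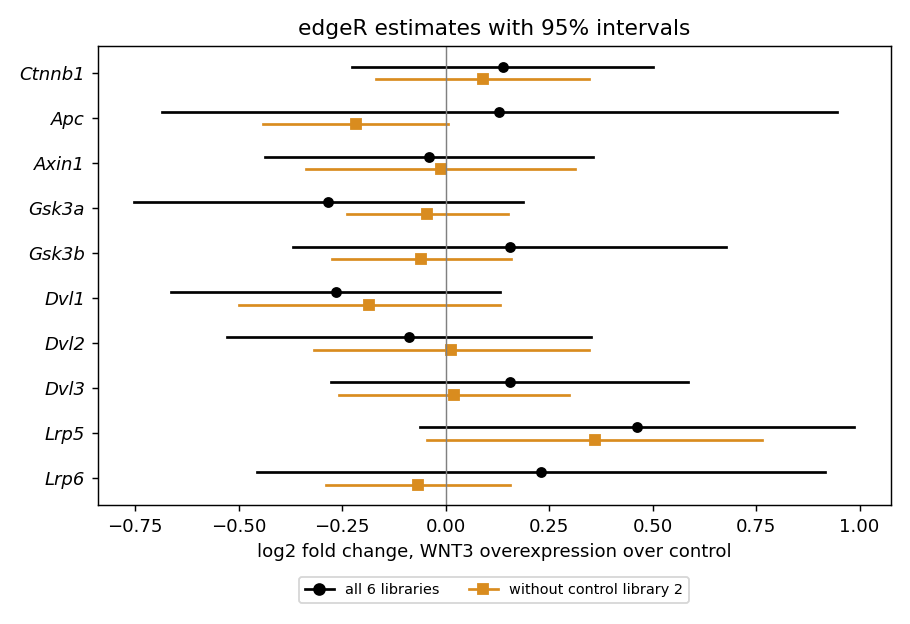
For each gene the point gives the edgeR log2 fold change of WNT3 overexpression over control and the bar its 95% interval, in black with all 6 libraries and in orange without control library 2. Every interval includes 0, and without control 2 those of Apc, Gsk3a, Gsk3b and Lrp6 shrink the most, to ends of -0.44 and 0.0071 for Apc.

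The spread between libraries of the same group set the precision of these values. The SD of log2 CPM within groups had a median of 0.194 over the 10 genes and of 0.391 over all tested genes. It ran from 0.123 for Axin1 to 0.613 for Apc, which placed Axin1 at the 6.56th and Apc at the 75.5th percentile of all tested genes. Without control 2 the medians were 0.107 for the 10 genes and 0.228 for all genes. Apc then had an SD of 0.105 and Gsk3a one of 0.0365, at the 18.5th and 1.35th percentiles. The SD was smaller without control 2 for 8 of the 10 genes, the exceptions being Ctnnb1 and Axin1.

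The 10 genes differ widely in transcript length, and the level in control 2 followed it for most of them. Apc has the longest annotated protein-coding transcript, of 12811 bases, followed by Lrp6 with 9368 and Gsk3b with 8303 bases. In Gsk3b most of this is 3′ untranslated sequence, 5518 bases against 1260 bases of coding sequence. The shortest is Gsk3a, with 2260 bases. Against the mean of the other 5 libraries, control 2 was at -1.35 for Apc, -1.14 for Lrp6, -0.74 for Gsk3b and -0.55 for Lrp5 on the log2 CPM scale. It was at 0.65 for Gsk3a, 0.34 for Dvl1 and 0.28 for Dvl2. Ctnnb1 and Axin1, with 3623 and 3777 bases, stood at -0.20 and 0.09. Dvl3 stood at -0.46 with 3983 bases, well below Axin1 at a like length. Dvl2 and Lrp5 have longest annotated transcripts of like length, 5037 and 5161 bases, and went in opposite directions. Their ratios of counts to TPM, which reflect the length used for TPM, were not alike. Relative to the median tested gene, the ratio was 1.01 for Dvl2 and 1.76 for Lrp5. On that scale Axin1 was at 1.27 and Dvl3 at 1.62.

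The same order held across all tested genes with an annotated protein-coding transcript, 15213 in number. In control 2 the median difference from the other libraries was 0.85 in the shortest of 5 length groups of near equal size, 0.04 in the middle group and -0.71 in the longest, all on the log2 CPM scale. In the other 5 libraries the medians of the longest group lay between 0.10 and 0.18. Each of these was set against a mean that includes control 2, so they in part mirror its low value. Of the 10 pathway genes 4 are in the longest group (Apc, Gsk3b, Lrp5 and Lrp6). Summed astrocyte markers also stood apart in control 2, at 3141 CPM, against 5952 and 6621 CPM in the other controls and 4997 to 5705 CPM in overexpression. The part of RNA quality or of cell makeup in the control 2 values was not tested. With a trend on length removed from every library, a step chosen after seeing the data, the median log2 fold change of the 10 genes was 0.0066, and that of Lrp5 was 0.32. Length was taken there as the ratio of counts to TPM, not as the annotated transcript length used for the groups above.

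**Figure D3:**
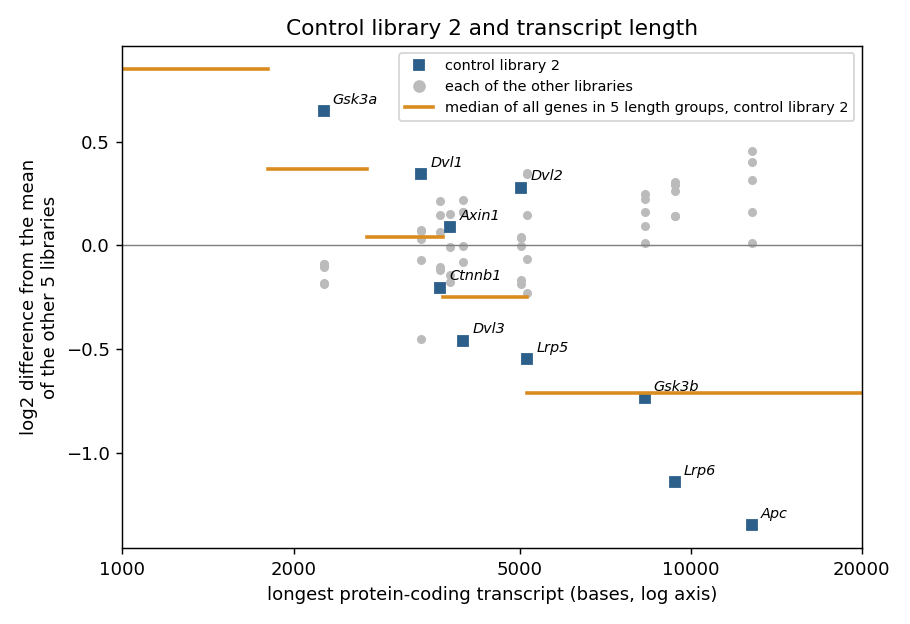
The horizontal axis gives the longest annotated protein-coding transcript of each gene in bases on a log axis, and the vertical axis the log2 CPM difference of a library from the mean of its other 5 libraries. Blue squares are control library 2, grey points the other libraries, and orange lines the medians of all genes in 5 length groups in control 2 (outer groups run past the axis); control 2 runs from 0.65 for Gsk3a to -1.35 for Apc.

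Per unit of length, the pathway genes spanned a wide range of levels. By mean TPM over the 6 libraries the order was Ctnnb1 (196), Gsk3a (144), Apc (118), Gsk3b (59.5), Dvl1 (49.2), Dvl3 (22.04), Lrp6 (17.2), Axin1 (12.9), Dvl2 (10.5) and Lrp5 (2.74). Over all 6 libraries only Dvl1 and Dvl3, and Dvl2 and Lrp5, had ranges apart from their next neighbour. Without control 2 all neighbours were apart except Gsk3a and Apc, whose ranges were 140 to 145 TPM and 116 to 147 TPM. Ctnnb1 averaged 219 ± 22.0 TPM in overexpression and 174 ± 44.6 TPM in control (SD, n = 3 each). The scaffold Axin1 averaged 13.7 ± 0.50 TPM in overexpression and 12.2 ± 2.51 TPM in control (SD, n = 3 each), far below beta-catenin and Gsk3a.

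No share of a gene in the summed TPM of its family passed the test, which cannot reach 0.05 with 3 libraries a group. With all libraries, only the shares of Dvl1 and Dvl3 did not overlap between the groups, and that of Dvl2 overlapped. Dvl1 made up 55.7%, 56.8% and 59.6% of the summed TPM of the 3 Dvl genes in overexpression, against 62.4%, 67.3% and 60.6% in control. The groups did not overlap, and the mean difference was -6.02 percentage points. The two-sided exact permutation test gave p = 0.1, the smallest value that 3 against 3 libraries can give, and 0.35 after Benjamini-Hochberg adjustment over the 7 shares tested. The share of Dvl3 ran the other way, at 30.5%, 30.1% and 27.8% in overexpression against 26.0%, 18.7% and 26.9% in control. Its exact permutation p values were the same. The 3 Dvl shares add up to the whole, so those of Dvl1 and Dvl3 are not separate results. The 7 shares tested are thus not all independent. Without control 2 the differences were -4.07 points for Dvl1 and 2.96 points for Dvl3.

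The share of Gsk3b in the GSK3 pair was 33.6%, 30.5% and 30.6% in overexpression, against 31.3%, 15.0% and 32.4% in control. Outside control 2 it lay between 30.5% and 33.6%, and the difference of 5.29 points with all libraries was -0.32 points without that library. Lrp5 made up 15.6%, 14.4% and 14.1% of the co-receptor pair in overexpression, against 11.1%, 18.7% and 11.8% in control, so Lrp6 was the main co-receptor transcript in every library. With all libraries the Lrp5 share overlapped between the groups (exact permutation p = 0.9). Without control 2 it was higher in every overexpression library than in the other controls, by a mean of 3.27 points (exact permutation p = 0.1, the smallest that 3 against 2 libraries can give). Set against its neural relative Apc2, Apc held 83.3 ± 0.82% in overexpression and 78.4 ± 7.02% in control (SD, n = 3 each), and 70.4% in control 2. Without control 2 the difference in the Apc share was 0.91 points. Against its Wnt-induced relative Axin2, Axin1 held 51.0 ± 4.23% in overexpression and 53.2 ± 7.69% in control (SD, n = 3 each), with 61.9% in control 2. The difference was -2.12 points with all libraries and 2.26 points without control 2.

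**Figure D4:**
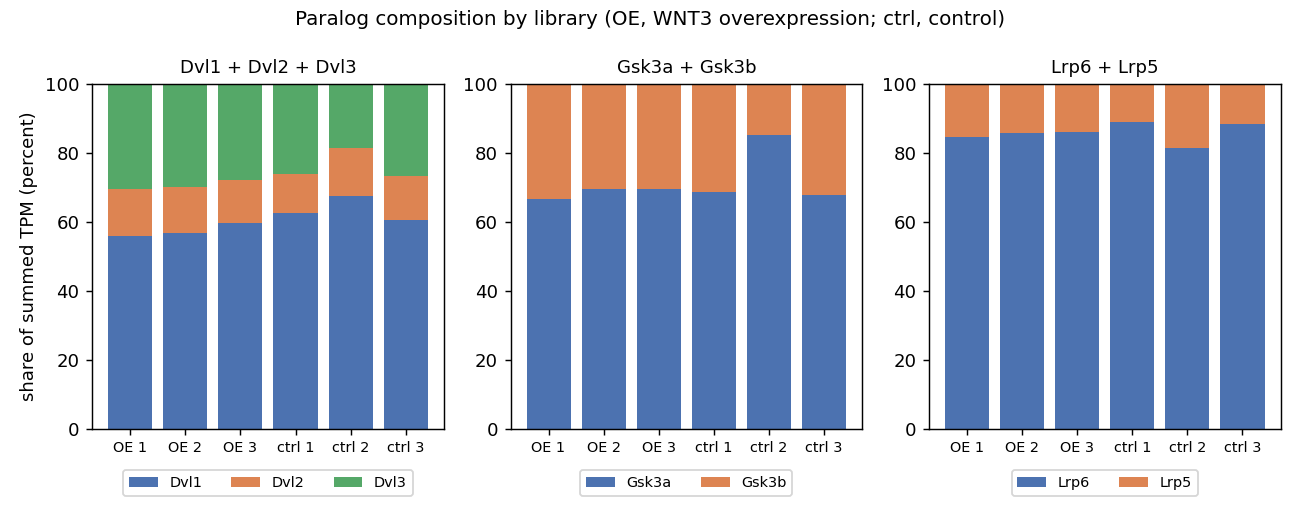
Stacked bars give the share of each gene in the summed TPM of its family, in percent, for the 3 overexpression libraries on the left and the 3 controls on the right of each panel. Dvl1 is lower in each overexpression library than in each control, and control library 2 differs from the other 5 libraries most in the GSK3 pair, where Gsk3b is at 15.0%.

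Other genes of the pathway also had no member past the adjusted threshold by edgeR in either direction, in any of 5 lists. DESeq2 called 0 in each, and the few at an unadjusted p under 0.05 by edgeR are given with each list. Over all tested genes 4.65% were at that level (5.87% without control 2), and 49.3% had a log2 fold change above 0. Of 25 cytoplasmic partners of the destruction complex, 15 had a log2 fold change above 0 and 10 below, with a median of 0.07 (0.010 without control 2), and 0 had an unadjusted p under 0.05. Without control 2 there was 1 at that level, Apc2, with a log2 fold change of -0.32 ± 0.089 (SE) and an adjusted p of 0.700 by edgeR. Csnk1d, a casein kinase 1 gene, was at 121, 120 and 111 CPM in overexpression, against 90.9, 90.2 and 109 CPM in control, a log2 fold change of 0.28 ± 0.16 (SE), or 0.23 without control 2. Skp1, a subunit of the ubiquitin ligase that takes up phosphorylated beta-catenin, had one of -0.37 ± 0.21 (SE), or -0.11 without control 2.

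Of 16 regulators of dishevelled, 9 were above 0 and 7 below, with a median of 0.06 (-0.10 without control 2), and 1, Dact3, had an unadjusted p under 0.05, both with all libraries and without control 2. Dact3, an antagonist that binds dishevelled, was at 48.6, 44.1 and 57.4 CPM in overexpression, against 60.2, 134 and 65.4 CPM in control. Its log2 fold change was -0.79 ± 0.31 (SE) with all libraries and -0.33 without control 2. Cxxc5, a further dishevelled-binding inhibitor, had one of -0.48 ± 0.24 (SE), or -0.19 without control 2.

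Of 18 partners of the co-receptors, 10 were above 0 and 8 below, with a median of 0.07 (0.05 without control 2). Kremen2, a receptor for Dickkopf antagonists, was the 1 with an unadjusted p under 0.05, but its levels were at most 0.21 CPM in overexpression and, in control, 1.41 CPM in control 2. Its log2 fold change of -2.39 ± 0.89 (SE) was -1.08 without control 2, where 0 of the 18 had an unadjusted p under 0.05. Tmem198, a membrane protein that aids LRP6 phosphorylation, had one of -0.65 ± 0.29 (SE), or -0.25 without control 2.

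Of 27 partners of beta-catenin in the nucleus and at junctions, 17 were above 0 and 10 below, with a median of 0.10 (0.03 without control 2), and 0 had an unadjusted p under 0.05. Without control 2 there were 2 at that level, Lef1 and Ctnnd2, a neuronal relative of p120 catenin, with a log2 fold change of -0.25 ± 0.093 (SE) and an adjusted p of 0.815 by edgeR. Lef1, a transcription factor that binds beta-catenin and is also on the target list, was at 5.03, 5.74 and 3.98 CPM in overexpression, against 3.19, 3.98 and 3.18 CPM in control, a log2 fold change of 0.51 ± 0.26 (SE). Without control 2 that of Lef1 was 0.62 ± 0.23 (SE), with an unadjusted p of 0.0289 and an adjusted p of 0.797 by edgeR. Cdh5, the endothelial cadherin, had one of 0.60 ± 0.33 (SE), or 0.34 without control 2. Of 21 direct target and feedback genes 14 had enough counts to be tested, with 8 above 0 and 6 below, a median of 0.06 (-0.06 without control 2) and 1 at an unadjusted p under 0.05 (Lef1 in its place without control 2). With all libraries that gene was Rnf43, a ubiquitin ligase that removes Wnt receptors from the surface, at 1.44, 1.80 and 1.57 CPM in overexpression, against 2.82, 3.25 and 2.0 CPM in control. Its log2 fold change was -0.74 ± 0.31 (SE), or -0.58 without control 2.

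Where genes lie on opposite strands, reads may be shared if strand was not used in counting, which the sources used here do not state. Lrp5 and Lrp6 overlap no annotated gene, whereas each of the other pathway genes overlaps at least 1 on the other strand. Among these are Ulk4 for Ctnnb1 and Acadvl for Dvl2. Whole gene spans were compared, so whether exons overlap was not tested.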

How the data were processed

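RNA was extracted with Trizol and made into strand-specific TruSeq libraries, per the labels' protocols. FastQC 0.11.5, STAR 2.5.3a, Cuffnorm, DESeq 1.16.1 and mm10 are named in the submitters' processing notes, without roles. Which program counted, with which annotation and strand setting, is not stated there. Counts were deposited as whole numbers with no normalization, and TPM as values that the authors scaled to 1 total in every library. Columns were matched to samples by library name, and groups came from sample titles.

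Genes kept by filterByExpr (minimum count 10) were compared with the edgeR 4.0.16 quasi-likelihood test in R 4.3.3 (TMM factors, group as the only term, Benjamini-Hochberg threshold 0.05). Standard errors are the log2 fold change over the square root of F. The design cannot give an exact permutation p below 0.1. Annotated transcript lengths and positions are from GENCODE M21, whereas the length trend was fitted on the ratio of counts to TPM. The statistics were tested on simulated data. Alternatives used DESeq2 1.42.0, limma 3.58.1 (voom, and log2(TPM + 1) or log2(TPM + 0.1)), other scaling and filters, a replicate block, omission of each library and, added after seeing the data, removal of a length trend (lowess, span 0.3).

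The 10 genes and all lists were chosen with earlier results of these data known. All 10 genes are named, with up to 2 genes per pathway list by smallest p and the 3 genes nearest to Ctnnb1 (CPM of 10 or more, unnamed gene models left out). Bc1, Apc2, Axin2, Ulk4 and Acadvl were named outside that rule, Bc1 after its values were seen, as were Apc2 and Ctnnd2 without control 2. Skp1 was found under its synonym.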

Additional observations from a re-analysis of the deposited data

How the results depend on the processing

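None of the 10 genes was called under any of the 17 alternatives. Ctnnb1, Gsk3a, Dvl1, Dvl3 and Lrp5 kept the sign of their log2 fold change in all 17. Lrp5 ran from 0.32 to 0.66, Ctnnb1 from 0.078 to 0.36 and Dvl3 from 0.021 to 0.40. Gsk3a ran from -0.39 to -0.026 and Dvl1 from -0.35 to -0.055, both nearest to 0 on log2(TPM + 1). DESeq2 called 64 genes in all, against 0 by edgeR, and put 1 of the 10 (Lrp5) at an unadjusted p under 0.05. The median log2 fold change of the 10 genes, 0.13 with all libraries, was -0.028 without control 2, 0.07 to 0.24 without any other single library, and 0.0066 with the length trend removed. On log2(TPM + 1), log2(TPM + 0.1), and log2(TPM + 1) with a mean TPM minimum of 0.5 it was 0.37, 0.38 and 0.37, where the median of all genes was itself shifted to 0.14, 0.22 and 0.18. In the same 3 settings the sign turned for Axin1 (0.17, 0.18 and 0.17) and Dvl2 (0.13, 0.14 and 0.13). With single libraries left out it turned, without control 2, for Apc (range over the 6 omissions -0.22 to 0.36), Gsk3b (-0.058 to 0.30), Lrp6 (-0.066 to 0.42) and Dvl2 (-0.17 to 0.014), the first 3 being lowest and Dvl2 highest in that setting. Axin1 (-0.11 to 0.020) turned without overexpression library 1 (0.016) and without control 3. With the length trend removed Gsk3b turned to -0.026. The cause was not tested. Whether replicate numbers pair the samples was not settled. The correlations of same-numbered deviations were 0.059, -0.02 and -0.01. They cannot exclude pairing, since each group has 3 libraries and control 2 stands apart. With the replicate block edgeR called 0 genes (751 at an unadjusted p under 0.05, lowest adjusted p 0.873). Counts were lowest for Lrp5, at 220 to 459 per library; how far depth limits its value was not tested.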
